A study of Homo sapiens with 18 samples.

Results

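The 35 genes described here encode the enzymes that make nucleotide sugars and build glycans with them, from the hexosamine pathway to the transferases of the Golgi. They were picked by gene symbol, with earlier results of these data known, and all 35 were found among the 34912 genes of the tables. The cells were LNCaP, an androgen-responsive line from a lymph node metastasis of prostate cancer. They were transfected with a pool of siRNAs against the transcription factor NFYA, a pool against KLF5, or a pool of non-targeting control siRNAs, grown for 48 h in medium with 5% charcoal-stripped serum, and then given 10 nM of the synthetic androgen R1881 or the vehicle (96% ethanol) for 24 h. The 6 groups were therefore siNFYA with R1881, siKLF5 with R1881, control siRNA with R1881, siNFYA with vehicle, siKLF5 with vehicle and control siRNA with vehicle. All of them shared the steroid-depleted serum, and all came from this 1 cell line. Each group had 3 RNA sequencing libraries except siKLF5 with vehicle, which had 2, because the deposited counts used here held no values for its replicate 1.

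The hexosamine pathway turns fructose 6-phosphate into UDP-GlcNAc, the donor for O-GlcNAc on nuclear and cytosolic proteins and for the branches of N-glycans. Parallel routes make GDP-mannose and GDP-fucose, CMP-sialic acid, and UDP-glucuronate. Glycosyltransferases then move these sugars onto proteins and lipids in the endoplasmic reticulum and the Golgi, where the mucin-type O-glycans and the mature N-glycans of secreted prostate proteins are built. In the prostate epithelium androgen drives a secretory programme, and UAP1 is a known androgen-responsive gene.

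Levels below are CPM, that is, the deposited estimated counts per 1000000 after scaling by TMM over all 17 libraries, whose totals ran from 4416653 to 6872421 estimated counts. A gene was called at an adjusted p under 0.05 in the quasi-likelihood F test of edgeR, and the p-values measure the spread between libraries, which may be technical, since the labels do not say that libraries were separate cultures. NFYA had 58.7, 56.9 and 53.6 CPM with siNFYA and R1881, against 84.5, 89.7 and 86.6 CPM with control siRNA and R1881, and its log2 fold change with siNFYA was −0.62 in R1881 and −0.62 in vehicle. KLF5 had 11.8, 11.4 and 15.2 CPM with siKLF5 and R1881, against 27.9, 25.3 and 31.9 CPM with control siRNA and R1881 (log2 fold change −1.15 (SE 0.16, adjusted p = 0.000228)). On TPM in limma this fall was not called (−0.14, adjusted p = 0.949): KLF5 had 5.44, 40.1 and 6.74 TPM with siKLF5 and R1881, replicate 2 being above every control library, against 11.8, 13.1 and 14.3 TPM with control siRNA and R1881. In vehicle, KLF5 was at 0.932 and 3.03 CPM with siKLF5, against 4.91, 4.30 and 3.26 CPM with control siRNA, and its log2 fold change of −1.08 (SE 0.35, adjusted p = 0.149) was not called. The androgen-induced genes KLK3 and FKBP5 had log2 fold changes with R1881 of 5.97 and 5.31 under control siRNA. All 9 luminal markers were measured, whereas the summed level of 4 basal markers stayed at or below 0.468 CPM in every library, with 1 of the 4 at 0 throughout. The summed level of 5 neuroendocrine markers averaged 18.8 CPM in R1881 and 42.3 CPM in vehicle under control siRNA. ENO2 made up most of this sum, at 15.9 CPM and 40.6 CPM, whereas SYP went the other way, at 2.80 CPM and 1.57 CPM. CHGA, CHGB and INSM1 averaged at most 0.0974 CPM in these groups. The part of these markers in the results was not tested. Replicate 3 of siNFYA with vehicle stood apart from the other libraries of its group, with a chi-square per degree of freedom of 9.93 and 13.2 against them, where other replicate pairs had 1.32 to 3.47. The gene AC010970.1 took 2.85% of its counts, against 0.0902% to 0.424% in the other libraries. Without this library, 32 of the 34 genes were called with R1881 under siNFYA, as with it, and the GMPPB call with siNFYA in vehicle was lost. In bulk RNA, a change in the number of cells of a type and a change in RNA per cell cannot be told apart.

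R1881 raised most of the genes. Since they were chosen with earlier results of these data known, the shares of all genes given beside them do not test the set. Under control siRNA, 25 of the 34 genes tested rose, 6 fell and 3 were not called, beside 62.9% of all 12601 genes called in either direction, 32.1% higher and 30.8% lower. At least a 2-fold rise was seen for 14 genes, against 7.47% of all genes, and at least a 2-fold fall for 2, against 9.31% of all genes. With siNFYA, 26 rose and 6 fell, against 31.2% and 31% of all genes (62.1% in either direction). Of these, 14 rose and 3 fell at least 2-fold, against 7.38% and 9.75%. With siKLF5, 25 rose and 6 fell, against 30.7% and 28.4% of all 12733 genes (59.2% in either direction), with 12 and 2 changed at least 2-fold, against 7.26% and 8.8%. The median log2 fold change over the 34 genes was 0.784 with siNFYA, 0.643 with siKLF5 and 0.835 with control siRNA, beside −0.0183, −0.00593 and −0.0102 over all genes tested. The R1881 and vehicle libraries did not overlap for 32, 32 and 31 of the 34 genes under siNFYA, siKLF5 and control siRNA, against 64.6%, 69.4% and 67.7% of all genes. GALNT6, a GalNAc-transferase, did not pass the filter on low counts, with 10 of 17 libraries at 0 and at most 5.0 counts in a library. Scaling by library totals in place of TMM moved the median of all genes to −0.247 under control siRNA and the share of called genes that were higher to 28.21%, against 51.07% with TMM, while the median of the 34 genes was 0.598. The 35 genes together took 0.46% of the estimated counts of a library in R1881 and 0.318% in vehicle, as means under control siRNA.

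**Figure D1:**
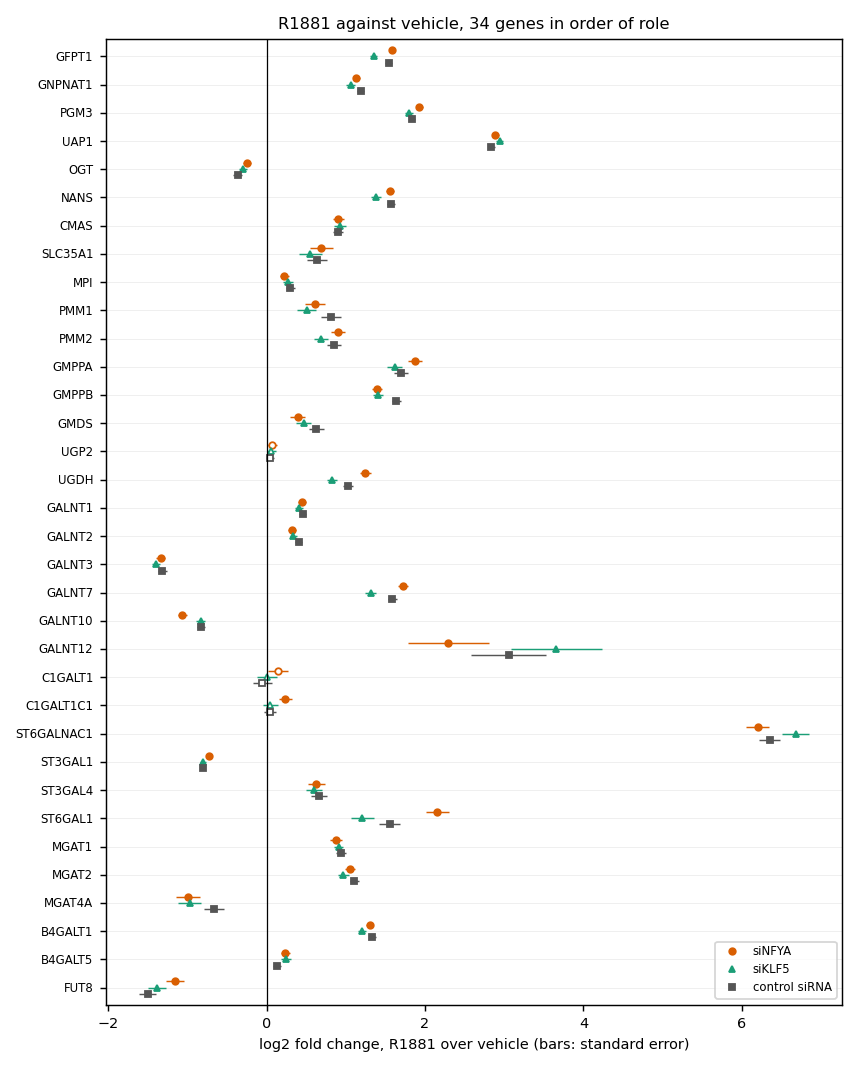
Log2 fold change of 34 genes with R1881 over vehicle (horizontal axis, bars are standard errors) under siNFYA (circles), siKLF5 (triangles) and control siRNA (squares), in order of role from the hexosamine pathway at the top to N-glycan enzymes at the bottom. Filled symbols were called and open ones were not. The 3 siRNA conditions lie close together for most genes, with ST6GALNAC1 farthest right and FUT8 and GALNT3 farthest left.

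The 4 enzymes that carry fructose 6-phosphate to UDP-GlcNAc all rose with R1881, in every siRNA condition. Their summed level averaged 1783 CPM with siNFYA, 1736 CPM with siKLF5 and 1833 CPM with control siRNA in R1881, against 434 CPM, 452 CPM and 459 CPM in vehicle. GFPT1 (chr2:69319769-69387254, GRCh38), the amidotransferase that commits sugar to the pathway, had 464, 439.6 and 474 CPM with siNFYA, 457, 439.5 and 457 CPM with siKLF5 and 486, 482 and 522 CPM with control siRNA in R1881. In vehicle it had 155, 153 and 151 CPM with siNFYA, 178 and 176 CPM with siKLF5 and 176, 169.9 and 165 CPM with control siRNA. Every R1881 library was above every vehicle library. The log2 fold changes were 1.58 (SE 0.043) with siNFYA, 1.35 (SE 0.046) with siKLF5 and 1.54 (SE 0.040) with control siRNA (edgeR, adjusted p up to 2.40e-17).

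GNPNAT1 (chr14:52775194-52791668), which acetylates glucosamine 6-phosphate, gave 207, 224 and 209.9 CPM with siNFYA, 190.1, 191 and 196 CPM with siKLF5 and 206, 212 and 209 CPM with control siRNA in R1881. Its vehicle libraries gave 96.8, 96.3 and 99.1 CPM with siNFYA, 85.3 and 99.4 CPM with siKLF5 and 93.5, 89.5 and 91.1 CPM with control siRNA. Every R1881 library was above every vehicle library. The change was 1.13 (SE 0.046) with siNFYA, 1.06 (SE 0.057) with siKLF5 and 1.19 (SE 0.045) with control siRNA on the log2 scale (edgeR, adjusted p up to 1.75e-13).

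PGM3 (chr6:83161150-83193936), the mutase that moves the phosphate of N-acetylglucosamine, stood at 271, 274 and 279 CPM with siNFYA, 262, 262 and 257 CPM with siKLF5 and 276, 287 and 286 CPM with control siRNA in R1881. With vehicle it stood at 70.6, 74.8 and 70.05 CPM with siNFYA, 74.8 and 74.8 CPM with siKLF5 and 78.4, 80.2 and 78.6 CPM with control siRNA. Libraries of all 3 siRNA conditions were close to one another within each treatment. R1881 changed PGM3 by 1.93 (SE 0.045) with siNFYA, 1.80 (SE 0.049) with siKLF5 and 1.84 (SE 0.042) with control siRNA on the log2 scale (edgeR, adjusted p up to 3.45e-19).

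UAP1 (chr1:162561506-162599842), the pyrophosphorylase that makes UDP-GlcNAc itself, had the largest change of the 4. Its R1881 libraries held 801, 876 and 829 CPM with siNFYA, 837, 839 and 822 CPM with siKLF5 and 826, 842 and 866 CPM with control siRNA. The vehicle libraries held 114, 115 and 108 CPM with siNFYA, 111 and 105 CPM with siKLF5 and 121, 118 and 115 CPM with control siRNA. No vehicle library came near an R1881 library. The rise was 7.41-fold with siNFYA, 7.69-fold with siKLF5 and 7.14-fold with control siRNA, that is, 2.89 (SE 0.043) with siNFYA, 2.94 (SE 0.044) with siKLF5 and 2.84 (SE 0.041) with control siRNA on the log2 scale (edgeR, adjusted p up to 7.74e-24). In TPM, which corrects for transcript length, UAP1 averaged 968 TPM in R1881 and 126 TPM in vehicle under control siRNA, and was 1 in the order of the 35 genes by level in R1881 and 3 in vehicle.

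**Figure D2:**
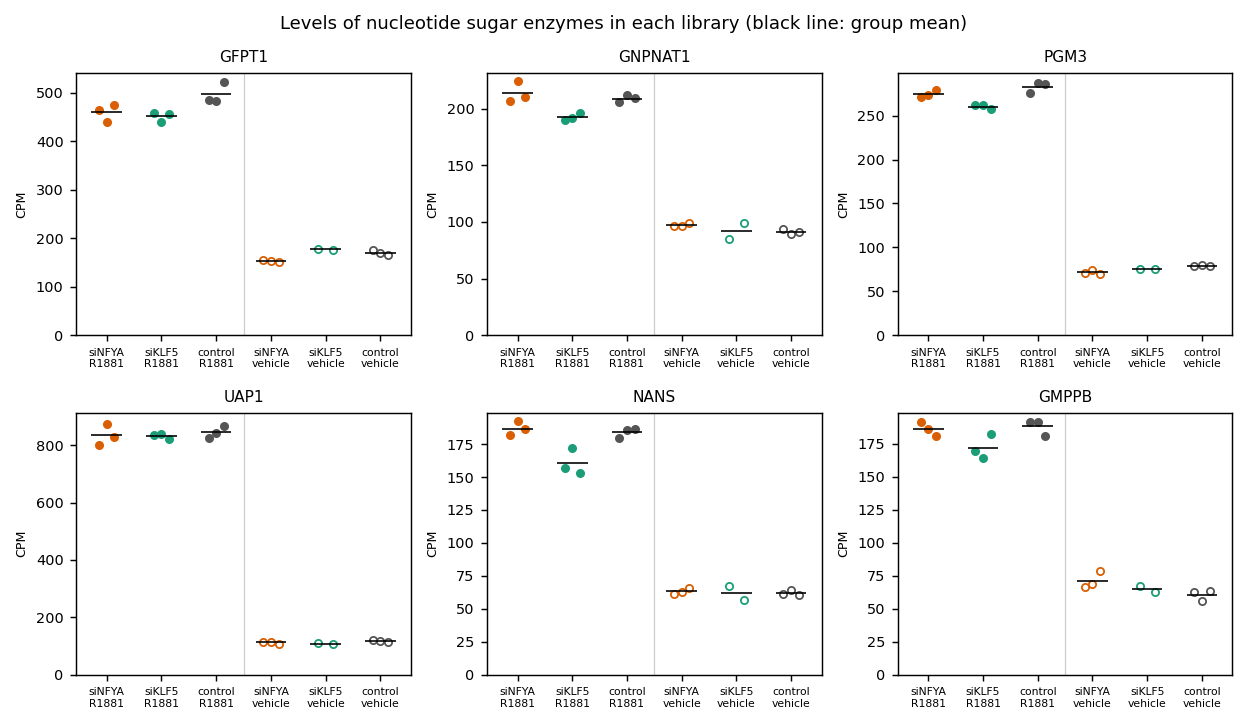
CPM in each library (vertical axis, starting at 0) of the hexosamine genes GFPT1, GNPNAT1, PGM3 and UAP1, the sialic acid synthase NANS and the GDP-mannose enzyme GMPPB, by group along the horizontal axis. Points are libraries, filled for R1881 and open for vehicle, and black lines are group means. In all 6 panels the R1881 libraries lie above the vehicle libraries, and the siRNA conditions of a treatment lie near each other.

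Since these 4 genes rose together, their promoters are shown, each with 250 bases before and 50 bases after a RefSeq start on GRCh38.p14, 5′ to 3′ on the gene's strand. The windows are those nearest to the GENCODE start of each gene, at chr2:69387178-69387477, minus strand, for GFPT1, chr14:52791558-52791857, minus strand, for GNPNAT1, chr6:83193851-83194150, minus strand, for PGM3 and chr1:162561281-162561580, plus strand, for UAP1. Capitals mark CCAAT, the letters bound by the NF-Y complex, or its reverse complement ATTGG, and the GC box GGGCGG, a match to the GC-rich sequences bound by the KLF and SP family, or its reverse complement CCGCCC.
GFPT1: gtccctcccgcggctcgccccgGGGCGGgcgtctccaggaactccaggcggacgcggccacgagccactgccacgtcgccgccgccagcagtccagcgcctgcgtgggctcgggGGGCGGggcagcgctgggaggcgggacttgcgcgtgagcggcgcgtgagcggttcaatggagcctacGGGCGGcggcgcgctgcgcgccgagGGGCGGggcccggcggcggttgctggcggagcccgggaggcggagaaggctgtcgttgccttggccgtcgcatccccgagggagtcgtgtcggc
GNPNAT1: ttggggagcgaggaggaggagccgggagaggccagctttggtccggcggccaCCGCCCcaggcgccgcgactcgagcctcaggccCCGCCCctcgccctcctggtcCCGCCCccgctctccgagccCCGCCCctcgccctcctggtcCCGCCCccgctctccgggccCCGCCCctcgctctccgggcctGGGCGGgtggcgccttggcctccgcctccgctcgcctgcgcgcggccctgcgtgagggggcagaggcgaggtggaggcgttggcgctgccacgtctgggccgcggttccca
PGM3: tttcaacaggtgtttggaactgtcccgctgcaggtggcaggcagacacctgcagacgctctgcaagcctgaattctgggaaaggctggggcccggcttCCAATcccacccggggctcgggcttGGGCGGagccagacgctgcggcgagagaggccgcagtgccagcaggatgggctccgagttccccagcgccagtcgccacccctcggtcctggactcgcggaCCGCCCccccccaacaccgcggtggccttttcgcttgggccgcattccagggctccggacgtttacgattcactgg
UAP1: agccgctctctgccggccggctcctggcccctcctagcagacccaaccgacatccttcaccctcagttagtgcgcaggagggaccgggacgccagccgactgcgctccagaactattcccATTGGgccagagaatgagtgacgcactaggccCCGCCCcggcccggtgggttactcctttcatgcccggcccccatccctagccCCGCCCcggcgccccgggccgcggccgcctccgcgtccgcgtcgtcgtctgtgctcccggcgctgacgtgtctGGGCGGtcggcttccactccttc
The GC box occurred 4 times in the GFPT1 window, 7 times in that of GNPNAT1, 2 times in that of PGM3 and 3 times in that of UAP1, counting both strands and overlapping matches. CCAAT occurred 1 time each in the PGM3 and UAP1 windows and was not found in the other two. Of the 35 genes, 31 matched the RefSeq table, with 48 windows. A GC box was in 39 of these 48 windows (81.25%), beside 66.3% of the 13949 windows of genes tested and 45.0% of all 35116 windows. CCAAT was in 16 of 48 (33.3%), beside 34.9% of the windows of genes tested and 34.6% of all windows. AGAACA, the core of the element bound by the androgen receptor, or TGTTCT, was in 5 of 48 (10.4%), beside 9.43% and 14.8%, and in none of the 4 windows shown. These matches are descriptions of the letters in the windows.

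OGT (chrX:71533083-71575897), which transfers the GlcNAc of UDP-GlcNAc to serine and threonine, went the other way. In R1881 it had 166, 148 and 158 CPM with siNFYA, 144, 131 and 138 CPM with siKLF5 and 104, 105 and 109 CPM with control siRNA. In vehicle it had 197, 183 and 178 CPM with siNFYA, 166 and 172 CPM with siKLF5 and 132, 134 and 144 CPM with control siRNA. Within each siRNA condition every R1881 library was below every vehicle library, and within each treatment the knockdown libraries were above the control libraries. The log2 fold changes with R1881 were −0.24 (SE 0.051) with siNFYA, −0.30 (SE 0.052) with siKLF5 and −0.37 (SE 0.055) with control siRNA (edgeR, adjusted p up to 0.000189).

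The 3 genes that make and move CMP-sialic acid rose. NANS, the sialic acid synthase, had 182, 192 and 186 CPM with siNFYA, 157, 172 and 153 CPM with siKLF5 and 180.0, 186 and 186 CPM with control siRNA in R1881. Its vehicle values were 61.3, 62.97 and 65.6 CPM with siNFYA, 66.9 and 56.6 CPM with siKLF5 and 60.9, 64.01 and 60.4 CPM with control siRNA. The treatments did not overlap, and the change was 1.56 (SE 0.050) with siNFYA, 1.38 (SE 0.068) with siKLF5 and 1.57 (SE 0.048) with control siRNA on the log2 scale (edgeR, adjusted p up to 2.81e-14). CMAS, which activates sialic acid with CTP, had log2 fold changes of 0.90 (SE 0.067) with siNFYA, 0.93 (SE 0.075) with siKLF5 and 0.90 (SE 0.064) with control siRNA, and its libraries ranged from 132 to 162 CPM in R1881 and from 68.8 to 79.8 CPM in vehicle. SLC35A1, which carries CMP-sialic acid into the Golgi, had log2 fold changes of 0.69 (SE 0.14) with siNFYA, 0.55 (SE 0.15) with siKLF5 and 0.64 (SE 0.13) with control siRNA, with libraries from 14.9 to 21.7 CPM in R1881 and from 9.12 to 13.8 CPM in vehicle. The siKLF5 value of SLC35A1 was not called with library totals (log2 fold change 0.32, adjusted p = 0.0659) or in limma on TPM (0.24, adjusted p = 0.194).

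All 6 genes of the mannose and GDP-sugar route rose under each siRNA. The largest changes were in both subunit genes of GDP-mannose pyrophosphorylase, GMPPB, the catalytic subunit, and GMPPA, its regulatory partner. GMPPA gave 83.7, 89.03 and 79.98 CPM with siNFYA, 62.98, 63.2 and 60.1 CPM with siKLF5 and 66.5, 75.6 and 68.9 CPM with control siRNA in R1881. The same gene gave 25.8, 20.05 and 23.02 CPM with siNFYA, 20.4 and 20.2 CPM with siKLF5 and 22.2, 23.1 and 19.5 CPM with control siRNA in vehicle. The R1881 libraries were all above the vehicle ones, and the change was 1.88 (SE 0.088) with siNFYA, 1.62 (SE 0.091) with siKLF5 and 1.70 (SE 0.086) with control siRNA on the log2 scale. GMPPB reached 192, 186 and 181 CPM with siNFYA, 169, 164 and 182 CPM with siKLF5 and 192, 192 and 181 CPM with control siRNA in R1881. In vehicle GMPPB was at 66.3, 68.6 and 78.5 CPM with siNFYA, 66.8 and 62.7 CPM with siKLF5 and 62.6, 55.5 and 62.9 CPM with control siRNA. The treatments were again apart, with changes of 1.39 (SE 0.059) with siNFYA, 1.41 (SE 0.064) with siKLF5 and 1.64 (SE 0.057) with control siRNA on the log2 scale (edgeR, adjusted p up to 4.30e-13 for GMPPA and 7.80e-15 for GMPPB).

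Smaller rises, given as log2 fold changes, were seen in the steps before and after GDP-mannose. The phosphomannomutases changed by 0.90 (SE 0.088) with siNFYA, 0.69 (SE 0.091) with siKLF5 and 0.86 (SE 0.088) with control siRNA for PMM2 and by 0.61 (SE 0.13) with siNFYA, 0.51 (SE 0.12) with siKLF5 and 0.81 (SE 0.13) with control siRNA for PMM1. GMDS, the dehydratase that starts the route to GDP-fucose, changed by 0.39 (SE 0.096) with siNFYA, 0.47 (SE 0.096) with siKLF5 and 0.63 (SE 0.093) with control siRNA. MPI, the mannose phosphate isomerase, changed least of the 6, by 0.22 (SE 0.056) with siNFYA, 0.27 (SE 0.063) with siKLF5 and 0.30 (SE 0.054) with control siRNA. These smaller rises depended on the scale in part: MPI was not called with library totals or on TPM under any siRNA (log2 fold change with siNFYA −0.0018 with library totals, below 0), and GMDS with siNFYA and PMM1 with siKLF5 were not called with either (log2 fold changes 0.17 and 0.27 with library totals). GMDS with siKLF5 was not called on TPM (0.18, adjusted p = 0.295).

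UGDH and UGP2 make successive products of the UDP-glucose route and differed in their response. UGDH, which oxidises UDP-glucose to UDP-glucuronate, the sugar donor for steroid glucuronidation, had 191, 191 and 194 CPM with siNFYA, 149, 151 and 150.2 CPM with siKLF5 and 163, 151 and 174 CPM with control siRNA in R1881. In vehicle it measured 88.97, 75.1 and 78.00 CPM with siNFYA, 82.5 and 86.98 CPM with siKLF5 and 74.7, 77.1 and 87.3 CPM with control siRNA. All R1881 libraries were above all vehicle libraries, with changes of 1.25 (SE 0.064) with siNFYA, 0.83 (SE 0.066) with siKLF5 and 1.03 (SE 0.063) with control siRNA on the log2 scale (edgeR, adjusted p up to 2.42e-10). UGP2, which makes UDP-glucose, was not called under any siRNA, with log2 fold changes of 0.07 (SE 0.060) with siNFYA, 0.06 (SE 0.062) with siKLF5 and 0.04 (SE 0.057) with control siRNA (edgeR, adjusted p = 0.31, 0.416 and 0.526). Its libraries lay between 69.3 and 75.7 CPM in R1881 and between 66.8 and 74.2 CPM in vehicle.

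The GalNAc-transferases, which put the first sugar of mucin-type O-glycans on serine and threonine, moved in both directions. Of the 6 tested, GALNT7, GALNT12, GALNT1 and GALNT2 rose and GALNT3 and GALNT10 fell, under each siRNA. GALNT7, which acts on peptides that already carry GalNAc, had 157, 159 and 150.1 CPM with siNFYA, 118, 111 and 114 CPM with siKLF5 and 153, 137 and 139 CPM with control siRNA in R1881. Its vehicle libraries were at 43.7, 48.7 and 48.8 CPM with siNFYA, 46.3 and 45.8 CPM with siKLF5 and 47.5, 48.4 and 46.6 CPM with control siRNA. R1881 libraries were above vehicle libraries throughout, and the changes were 1.72 (SE 0.061) with siNFYA, 1.32 (SE 0.068) with siKLF5 and 1.59 (SE 0.059) with control siRNA on the log2 scale (edgeR, adjusted p up to 7.06e-14).

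GALNT3, whose best known substrate is the hormone FGF23, had 57.5, 55.7 and 66.3 CPM with siNFYA, 61.96, 60.5 and 62.2 CPM with siKLF5 and 67.1, 68.7 and 67.9 CPM with control siRNA in R1881. The vehicle cells had 146, 149 and 156 CPM with siNFYA, 162 and 163 CPM with siKLF5 and 170.0, 167 and 169 CPM with control siRNA. Each R1881 library held less than any vehicle library. GALNT3 had log2 fold changes of −1.34 (SE 0.057) with siNFYA, −1.40 (SE 0.053) with siKLF5 and −1.32 (SE 0.053) with control siRNA, so that R1881 cells had 2.53-fold, 2.64-fold and 2.49-fold less (edgeR, adjusted p up to 1.84e-16). GALNT10 measured 63.9, 54.96 and 57.3 CPM with siNFYA, 68.8, 63.7 and 69.7 CPM with siKLF5 and 64.9, 67.6 and 67.7 CPM with control siRNA in R1881. Under vehicle it measured 123, 121 and 123 CPM with siNFYA, 126 and 114 CPM with siKLF5 and 118, 116 and 121 CPM with control siRNA. The R1881 values were lower without overlap, with log2 fold changes of −1.06 (SE 0.058) with siNFYA, −0.83 (SE 0.062) with siKLF5 and −0.83 (SE 0.055) with control siRNA (edgeR, adjusted p up to 6.56e-11).

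The broadly expressed GALNT1 and GALNT2 changed little. GALNT1 ran from 191 to 232 CPM in R1881 and from 141 to 162 CPM in vehicle, with log2 fold changes of 0.44 (SE 0.049) with siNFYA, 0.41 (SE 0.051) with siKLF5 and 0.46 (SE 0.046) with control siRNA. GALNT2 had 230.4, 202 and 206 CPM with siNFYA, 207, 201 and 209 CPM with siKLF5 and 242, 235 and 234 CPM with control siRNA in R1881. With vehicle GALNT2 had 168, 175 and 168 CPM with siNFYA, 167 and 159.6 CPM with siKLF5 and 177, 183 and 175 CPM with control siRNA. Its R1881 libraries were all above its vehicle libraries, with log2 fold changes of 0.32 (SE 0.047) with siNFYA, 0.34 (SE 0.046) with siKLF5 and 0.41 (SE 0.045) with control siRNA. On TPM neither gene was called with siNFYA or siKLF5 (log2 fold changes from 0.047 to 0.20), and with library totals GALNT2 was not called with siNFYA (0.095, adjusted p = 0.0903) or siKLF5 (0.10, adjusted p = 0.054). The lowest GalNAc-transferase tested was GALNT12, with 20, 12 and 7 counts with siNFYA, 13, 18 and 10 with siKLF5 and 15, 21 and 18 with control siRNA in R1881. The vehicle counts of GALNT12 were 3, 4 and 1 with siNFYA, 2 and 1 with siKLF5 and 3, 2 and 3 with control siRNA. GALNT12 was higher in R1881 in every case, and the ratio of scaled counts was 5.09 (95% counting interval 2.35 to 12.6) with siNFYA, 13.9 (4.42 to 69.9) with siKLF5 and 8.75 (4.14 to 21.3) with control siRNA.

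Neither gene of core 1 O-glycan synthesis was called under control siRNA or siKLF5. C1GALT1, the core 1 galactosyltransferase, changed on the log2 scale by 0.14 (SE 0.13) with siNFYA, 0.00 (SE 0.12) with siKLF5 and −0.05 (SE 0.12) with control siRNA, and its chaperone C1GALT1C1 by 0.24 (SE 0.081) with siNFYA, 0.05 (SE 0.095) with siKLF5 and 0.04 (SE 0.077) with control siRNA. The siNFYA value of C1GALT1C1 was called (edgeR, adjusted p = 0.0146), and the call ended without replicate 1 of siNFYA with R1881 (log2 fold change 0.21, adjusted p = 0.0537), with library totals (0.012, adjusted p = 0.905), on TPM (0.058, adjusted p = 0.587) and in DESeq2 (0.24, adjusted p = 0.0501).

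Sialyltransferases held the largest change of all. ST6GALNAC1 (chr17:76624761-76643838), which caps the first GalNAc of an O-glycan with sialic acid to form the sialyl-Tn antigen, had 80.4, 79.3 and 78.5 CPM with siNFYA, 69.98, 71.97 and 72.5 CPM with siKLF5 and 83.3, 83.7 and 90.5 CPM with control siRNA in R1881. In vehicle there were 1.43, 1.06 and 0.639 CPM with siNFYA, 0.532 and 0.826 CPM with siKLF5 and 1.19, 0.859 and 1.04 CPM with control siRNA, which rest on 3.0 to 8.0 counts per library. The R1881 libraries were close together and the vehicle libraries close to 0. The log2 fold changes were 6.20 (SE 0.15) with siNFYA, 6.68 (SE 0.17) with siKLF5 and 6.35 (SE 0.13) with control siRNA, and the ratio of scaled counts was 75.3 (95% counting interval 46.8 to 129.7) with siNFYA, 105.7 (57.2 to 221) with siKLF5 and 83.6 (54.5 to 135.5) with control siRNA (edgeR, adjusted p up to 8.43e-20). By TPM under control siRNA it averaged 61.6 TPM in R1881 and 1.37 TPM in vehicle, which moved it to 17 in the order of the 35 genes in R1881, against 33 in vehicle. Intervals cover counting error only.

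ST6GAL1, which sialylates the galactose ends of N-glycans, had 29.2, 32.1 and 31.3 CPM with siNFYA, 19.05, 21.6 and 18.7 CPM with siKLF5 and 22.6, 27.7 and 24.9 CPM with control siRNA in R1881. Vehicle libraries had 5.01, 7.54 and 8.31 CPM with siNFYA, 8.38 and 8.81 CPM with siKLF5 and 8.34, 9.59 and 7.55 CPM with control siRNA. They did not overlap with R1881, and the changes were 2.16 (SE 0.14) with siNFYA, 1.21 (SE 0.15) with siKLF5 and 1.56 (SE 0.13) with control siRNA on the log2 scale (edgeR, adjusted p up to 1.99e-07). ST3GAL4 had 31.3, 35.1 and 31.3 CPM with siNFYA, 26.7, 25.9 and 27.4 CPM with siKLF5 and 34.3, 36.3 and 32.5 CPM with control siRNA in R1881. The vehicle values of ST3GAL4 were 22.7, 17.8 and 23.02 CPM with siNFYA, 17.6 and 17.6 CPM with siKLF5 and 23.2, 20.8 and 21.2 CPM with control siRNA. Its log2 fold changes were 0.63 (SE 0.11) with siNFYA, 0.60 (SE 0.10) with siKLF5 and 0.66 (SE 0.099) with control siRNA, and on TPM the siKLF5 rise was not called (0.15, adjusted p = 0.297). ST3GAL1, which caps the galactose of core 1 O-glycans, fell, with libraries from 374 to 421 CPM in R1881 and from 637 to 707 CPM in vehicle. Its log2 fold changes were −0.72 (SE 0.033) with siNFYA, −0.80 (SE 0.039) with siKLF5 and −0.81 (SE 0.033) with control siRNA (edgeR, adjusted p up to 2.84e-14). By TPM under control siRNA ST3GAL1 was 10 in the order of the 35 genes in R1881, with 101 TPM, and 1 in vehicle, with 199 TPM.

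**Figure D3:**
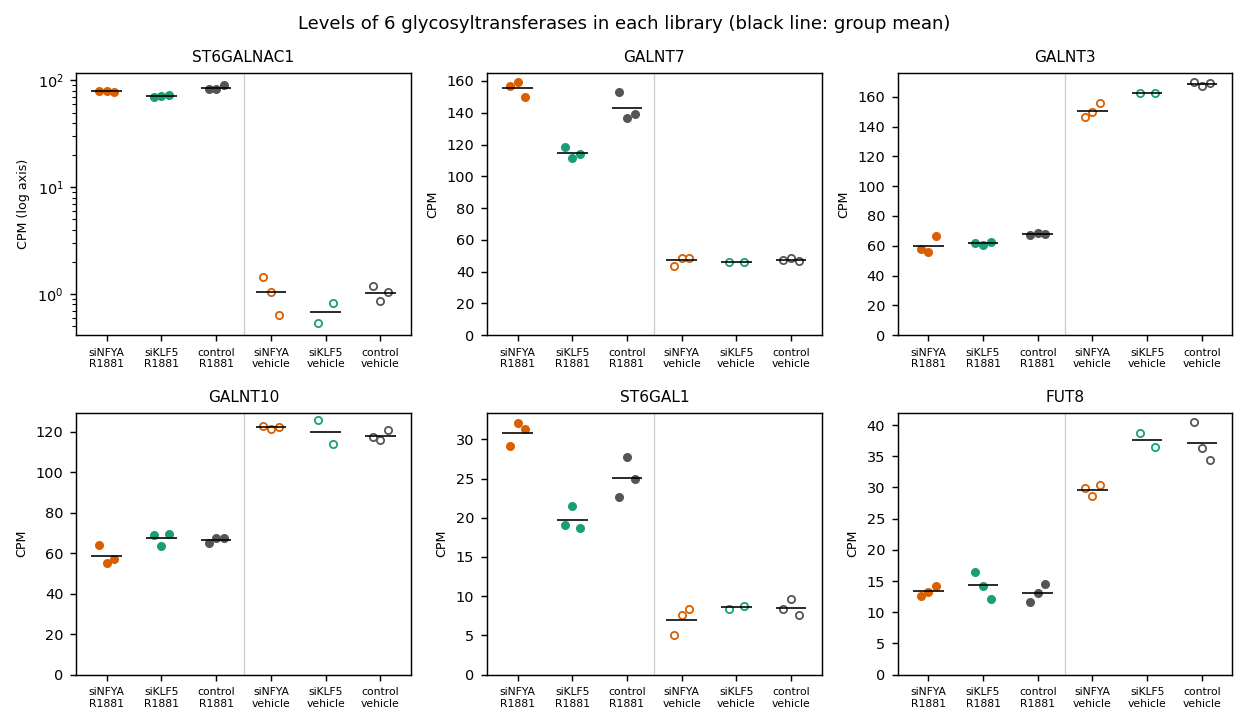
CPM in each library (vertical axis, linear from 0 except for ST6GALNAC1, which has a log axis) of 6 glycosyltransferases, by group along the horizontal axis. Points are libraries, filled for R1881 and open for vehicle, and black lines are group means. ST6GALNAC1, GALNT7 and ST6GAL1 are higher in R1881, and GALNT3, GALNT10 and FUT8 are lower, with no overlap between treatments.

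Among the N-glycan enzymes, those that start the antennae and add galactose rose, and a branching enzyme and the core fucosyltransferase fell. MGAT2, which starts the antenna needed for complex glycans, had 123, 116 and 108 CPM with siNFYA, 97.6, 106 and 109 CPM with siKLF5 and 115, 122 and 118 CPM with control siRNA in R1881. In vehicle MGAT2 had 53.5, 58.3 and 54.6 CPM with siNFYA, 55.5 and 50.6 CPM with siKLF5 and 51.96, 56.3 and 56.4 CPM with control siRNA. R1881 values were all higher, by 1.06 (SE 0.062) with siNFYA, 0.97 (SE 0.069) with siKLF5 and 1.11 (SE 0.059) with control siRNA on the log2 scale (edgeR, adjusted p up to 2.53e-11). MGAT1, which adds the GlcNAc that opens the way to hybrid and complex glycans, had log2 fold changes of 0.88 (SE 0.072) with siNFYA, 0.91 (SE 0.057) with siKLF5 and 0.94 (SE 0.069) with control siRNA, and its libraries ran from 118 to 138 CPM in R1881 and from 59.2 to 76.9 CPM in vehicle. B4GALT1, the main galactosyltransferase of N-glycans, reached 276, 280.3 and 285 CPM with siNFYA, 283, 261 and 267 CPM with siKLF5 and 281, 291 and 286 CPM with control siRNA in R1881. Its vehicle values stayed at 108, 111 and 123 CPM with siNFYA, 121 and 114 CPM with siKLF5 and 118, 108 and 113 CPM with control siRNA. The treatments were apart under each siRNA, with log2 fold changes of 1.30 (SE 0.047) with siNFYA, 1.20 (SE 0.051) with siKLF5 and 1.33 (SE 0.045) with control siRNA (edgeR, adjusted p up to 2.12e-15).

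FUT8, which adds the core fucose, had 12.7, 13.2 and 14.2 CPM with siNFYA, 16.4, 14.2 and 12.2 CPM with siKLF5 and 11.6, 13.1 and 14.6 CPM with control siRNA in R1881. The vehicle libraries of FUT8 held 29.9, 28.6 and 30.5 CPM with siNFYA, 38.7 and 36.5 CPM with siKLF5 and 40.6, 36.4 and 34.3 CPM with control siRNA. Every R1881 library was lower, and FUT8 changed by −1.16 (SE 0.11) with siNFYA, −1.38 (SE 0.12) with siKLF5 and −1.50 (SE 0.10) with control siRNA on the log2 scale (edgeR, adjusted p up to 2.18e-09). MGAT4A, a branching enzyme of low level, measured 6.33, 6.67 and 5.80 CPM with siNFYA, 7.66, 8.25 and 8.45 CPM with siKLF5 and 9.25, 8.81 and 9.73 CPM with control siRNA in R1881. With vehicle it measured 12.7, 13.1 and 11.7 CPM with siNFYA, 17.1 and 14.7 CPM with siKLF5 and 16.3, 13.6 and 14.2 CPM with control siRNA. R1881 values were below vehicle values without overlap, with log2 fold changes of −0.996 (SE 0.15) with siNFYA, −0.97 (SE 0.15) with siKLF5 and −0.67 (SE 0.13) with control siRNA, and on TPM the control siRNA value was not called (−0.31, adjusted p = 0.461). B4GALT5, which makes lactosylceramide, had 79.4, 82.7 and 76.97 CPM with siNFYA, 81.6, 89.8 and 92.9 CPM with siKLF5 and 86.3, 88.5 and 83.4 CPM with control siRNA in R1881. In vehicle it gave 64.6, 69.2 and 69.1 CPM with siNFYA, 73.5 and 74.7 CPM with siKLF5 and 80.2, 78.3 and 77.3 CPM with control siRNA. The groups did not overlap under any siRNA, yet the log2 fold changes were small, at 0.24 (SE 0.058) with siNFYA, 0.25 (SE 0.064) with siKLF5 and 0.13 (SE 0.054) with control siRNA. With siNFYA and siKLF5 B4GALT5 was not called with library totals (0.013, adjusted p = 0.858, and 0.014, adjusted p = 0.856) or on TPM (0.048 and 0.035). Under control siRNA the B4GALT5 value turned negative with library totals (−0.11) and on TPM (−0.032). It was not called in DESeq2 (0.12, adjusted p = 0.19), with RLE scaling, with no low-count filter, with the compared groups only, on coding transcripts or in the other table (adjusted p from 0.0572 to 0.0999), nor without replicate 2 (adjusted p = 0.0806) or replicate 3 (0.0918) of control siRNA with vehicle or replicate 1 (0.0787) or replicate 2 (0.127) of control siRNA with R1881.

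The response to R1881 was not shown to differ between a knockdown and control siRNA for any of these genes. In the test of the difference itself, the interaction of siRNA and treatment, edgeR called 0 of 34 genes for siNFYA and 0 of 34 for siKLF5, beside 0.722% and 0.0157% of all genes. At an unadjusted p under 0.05 there were 5 genes for siNFYA and 4 for siKLF5 in edgeR, beside 12% and 6.71% of all genes. DESeq2 called 0 as well, with 4 and 3 genes at an unadjusted p under 0.05, but its own filter gave an adjusted p to only 21 of the 34 genes for siNFYA and 3 for siKLF5. The smallest adjusted p was 0.195 for GMPPB with siNFYA, whose log2 response differed by −0.25 (SE 0.084), and 0.52 for GFPT1 with siKLF5, with a difference of −0.18 (SE 0.060). GALNT10 was called for siNFYA only without replicate 1 of siNFYA with R1881 (log2 difference −0.30, adjusted p = 0.0482). For UAP1 the responses differed by 0.05 (SE 0.060) with siNFYA and 0.12 (SE 0.058) with siKLF5, so the difference was small against a response of 2.84. These comparisons share the control libraries.

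The knockdowns themselves moved 1 to 6 of the 34 genes in a comparison, and by little. Each share was above that of all genes, but the genes were chosen with earlier results known, so this does not test the set. In R1881, siNFYA raised OGT, GMPPA and UGDH and lowered GALNT2 and MGAT4A, 5 of 34 genes beside 5.96% of all genes. In vehicle, siNFYA raised OGT and GMPPB and lowered GFPT1, GALNT3, B4GALT5 and FUT8, 6 of 34 beside 13.5% of all genes. With siKLF5, OGT rose and GALNT2, GALNT7, ST6GALNAC1 and ST3GAL4 fell in R1881, 5 of 34 beside 1.38% of all genes, and OGT alone rose in vehicle, 1 of 34 beside 1.32%. The largest of these changes was 1.48-fold, for OGT. The median over the 34 genes was −0.0215 and −0.0155 for siNFYA in R1881 and vehicle, and −0.109 and −0.0434 for siKLF5, beside −0.0163, −0.00143, 0.000236 and −0.00575 over all genes. The share of counts from mitochondrial genes moved with the knockdowns: it averaged 2.57% with siNFYA, 2.49% with siKLF5 and 1.38% with control siRNA in R1881, and 2.81%, 2.71% and 1.89% in vehicle. Its part in these results was not tested.

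**Figure D4:**
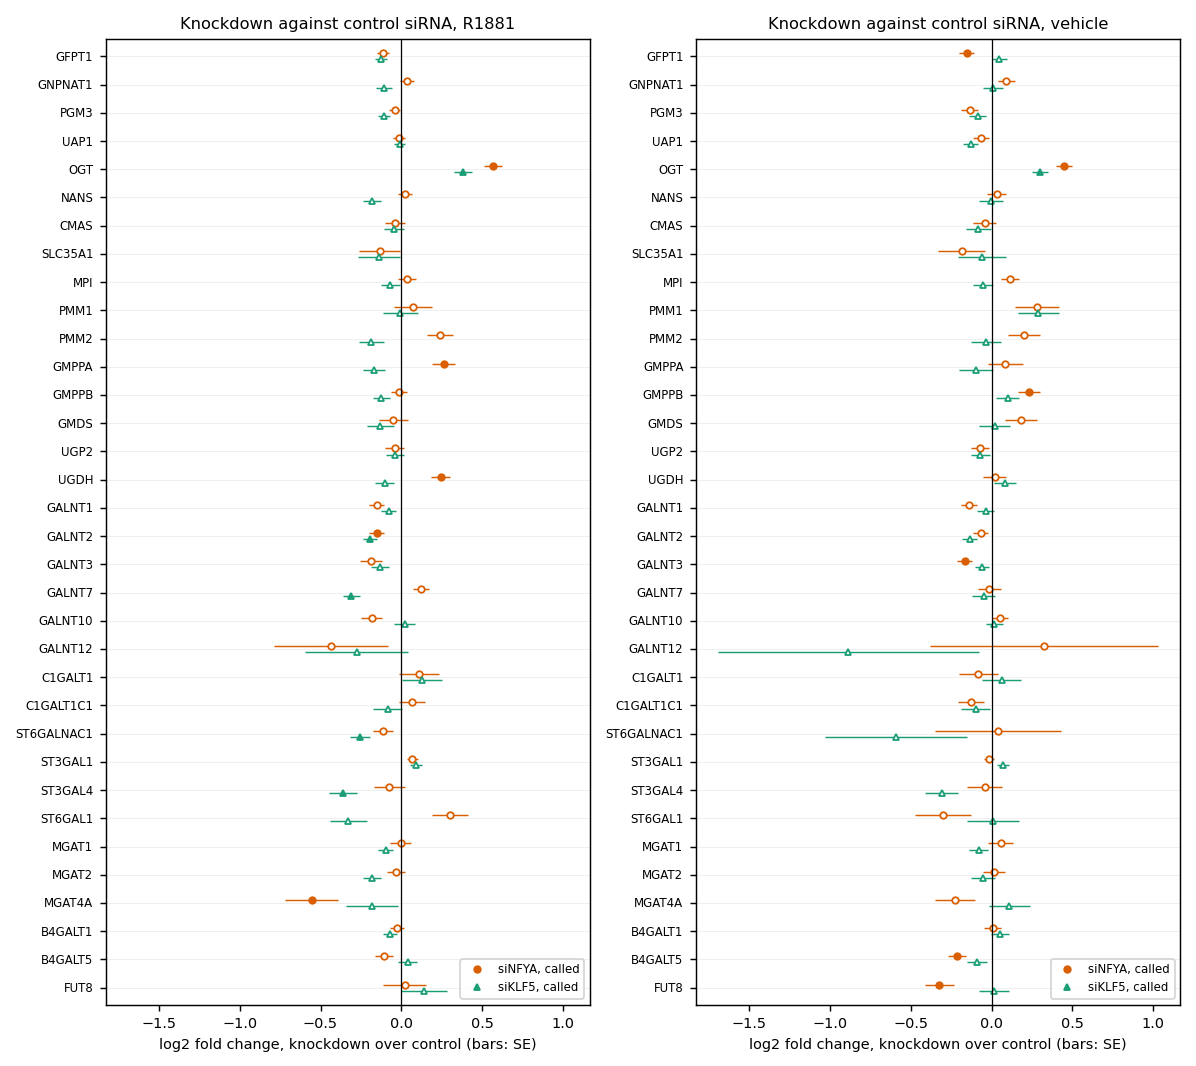
Log2 fold change of 34 genes for each knockdown over control siRNA (horizontal axis, bars are standard errors), in R1881 on the left and in vehicle on the right. Circles are siNFYA and triangles siKLF5, with filled symbols for called genes and open ones for the rest. OGT lies to the right of 0 in all 4 comparisons, at 0.57 and 0.38 in R1881 and 0.45 and 0.30 in vehicle.

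OGT was the gene called in all 4 of these comparisons. The log2 fold change in R1881 was 0.57 (SE 0.055, adjusted p = 2.02e-07) for siNFYA and 0.38 (SE 0.053, adjusted p = 0.000172) for siKLF5, and in vehicle 0.45 (SE 0.050, adjusted p = 1.47e-06) for siNFYA and 0.30 (SE 0.050, adjusted p = 0.00283) for siKLF5, in edgeR. It was called in every fit that left out 1 library. DESeq2 gave it no adjusted p for siKLF5 in vehicle, and limma on TPM did not call it for siKLF5 (log2 fold change 0.19, adjusted p = 0.502 in R1881 and 0.33, adjusted p = 0.45 in vehicle). The gene count, however, sums transcripts that code for protein and transcripts that do not.

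In the transcript estimates, the rise of OGT lay mainly in transcripts that are not annotated as coding. OGT-210, annotated in GENCODE as a retained intron, had 11.5, 9.27 and 11.4 TPM with siNFYA, 8.34, 7.42 and 7.51 TPM with siKLF5 and 2.13, 2.25 and 2.34 TPM with control siRNA in R1881. In vehicle OGT-210 had 16.4, 13.9 and 10.5 TPM with siNFYA, 9.40 and 10.1 TPM with siKLF5 and 3.79, 4.22 and 4.93 TPM with control siRNA. In both treatments every knockdown library was above every control library, and siNFYA was highest on average. The ratio of the OGT-210 group means was 4.80 for siNFYA and 3.46 for siKLF5 in R1881, and 3.15 and 2.26 in vehicle. OGT-205, a processed transcript, had 6.85, 10.9 and 18.7 TPM with siNFYA in R1881. With siKLF5 it had 7.95, 0.0058 and 2.53 TPM, and with control siRNA 0, 0.798 and 0.501 TPM. In vehicle OGT-205 had 11.4, 7.78 and 3.2 TPM with siNFYA and 15.1 and 1.53 TPM with siKLF5. Control siRNA with vehicle gave 7.77, 0 and 0.34 TPM. Its knockdown and control libraries overlapped except for siNFYA in R1881. The coding transcripts averaged 27.1 ± 3.7, 27.7 ± 1.7 and 29.6 ± 3.3 TPM with siNFYA, siKLF5 and control siRNA in R1881 (SD, n = 3 each). In vehicle they averaged 39.3 ± 4.6 (SD, n = 3), 41.8 ± 0.49 (n = 2) and 40.0 ± 0.77 TPM (n = 3). Of the coding transcripts, OGT-202 had 24.15, 22.73 and 22.33 TPM with siNFYA in R1881, against 20.97, 19.85 and 20.86 TPM with control siRNA. OGT-201 had 7.227, 2.088 and 2.637 TPM there, against 6.055, 8.602 and 8.09 TPM. In replicates 1 and 2 of siKLF5 with R1881, OGT-201 had 2.801 and 8.79 TPM where OGT-205 had 7.95 and 0.0058 TPM. A model divides reads between transcripts that share sequence, and this split was not tested.

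Counted over coding transcripts alone, which rests on the same model estimates, OGT was called in none of the 4 knockdown comparisons. The log2 fold change was then 0.11 (SE 0.060, adjusted p = 0.446) for siNFYA and 0.06 (SE 0.053, adjusted p = 0.752) for siKLF5 in R1881, and 0.08 (SE 0.055, adjusted p = 0.451) for siNFYA and 0.11 (SE 0.051, adjusted p = 0.521) for siKLF5 in vehicle (edgeR). The fall of OGT with R1881 was called on coding transcripts too, at −0.31 (SE 0.058, adjusted p = 0.0002) with siNFYA, −0.38 (SE 0.054, adjusted p = 1.45e-05) with siKLF5 and −0.34 (SE 0.057, adjusted p = 6.09e-05) with control siRNA. Over all genes, retained-intron transcripts took 4.74% of TPM with siNFYA, 4.45% with siKLF5 and 3.96% with control siRNA in R1881, and 4.91%, 4.69% and 4.20% in vehicle. The libraries of each knockdown were all above those of control siRNA in the same treatment, and the part of this shift in the OGT values was not tested.

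**Figure D5:**
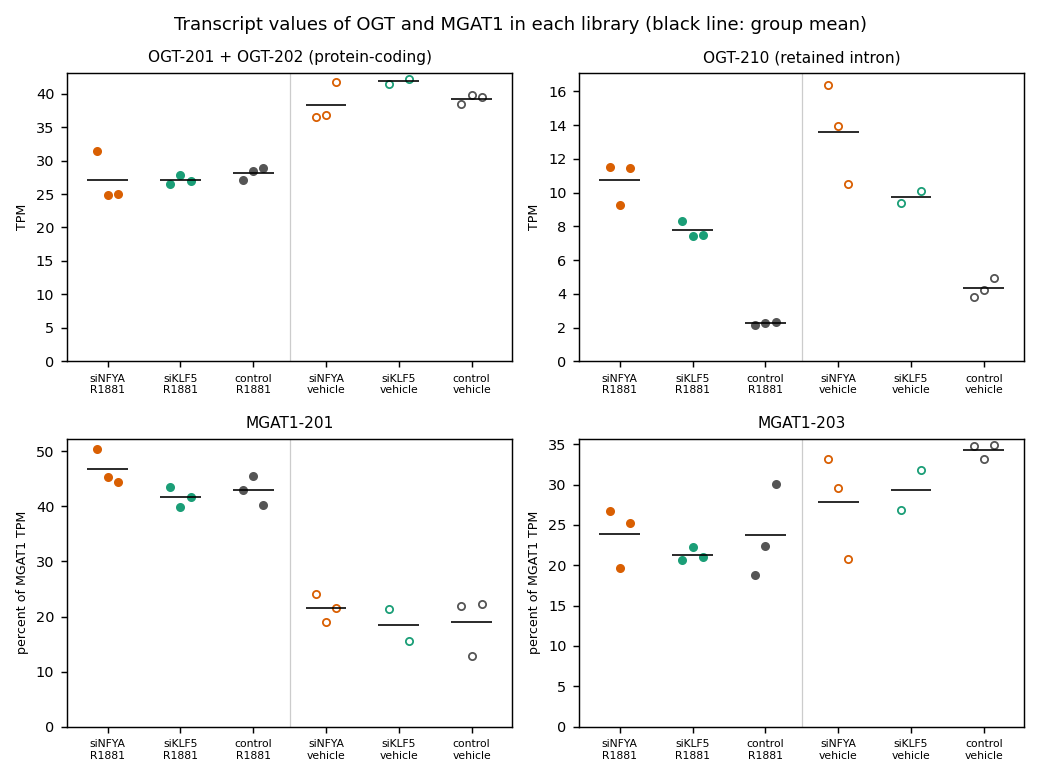
Transcript values in each library by group: TPM of the coding transcripts OGT-201 and OGT-202 together, TPM of the retained-intron transcript OGT-210, and the percent of MGAT1 TPM held by MGAT1-201 and by MGAT1-203 (vertical axes from 0). Points are libraries, filled for R1881 and open for vehicle, and black lines are group means. OGT-210 is higher in both knockdowns than in control siRNA, and MGAT1-201 holds a larger share in R1881 than in vehicle in every library.

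The other knockdown calls were small, given here as log2 fold changes in edgeR, and leaving out 1 library ended most of them. Besides OGT, DESeq2 called GFPT1 in vehicle and UGDH in R1881 with siNFYA and GALNT2 in R1881 with siKLF5, and limma on TPM called no other gene. For siKLF5 in R1881, the filter of DESeq2 gave an adjusted p to only 14 of the 34 genes. A gene not called there may have had no adjusted p. In R1881 with siNFYA, UGDH rose by 0.24 (SE 0.057, adjusted p = 0.0114) and was not called without replicate 2 of control siRNA with R1881 (0.19, adjusted p = 0.0894). GMPPA rose by 0.26 (SE 0.071, adjusted p = 0.0283), and was not called without replicate 1 (adjusted p = 0.146) or 3 (0.104) of control siRNA, nor without replicate 1 (0.0546) or 2 (0.14) of siNFYA. GALNT2 fell by 0.15 (SE 0.045, adjusted p = 0.0425) and MGAT4A fell by 0.56 (SE 0.16, adjusted p = 0.0496). GALNT2 was not called without replicate 1 (0.158), 2 (0.0928) or 3 (0.0825) of control siRNA or replicate 2 (0.196) or 3 (0.16) of siNFYA, and MGAT4A not without any 1 of the 6 libraries (adjusted p from 0.0798 to 0.152).

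In vehicle with siNFYA, GMPPB rose by 0.23 (SE 0.068, adjusted p = 0.0223) and was not called without replicate 2 of control siRNA (adjusted p = 0.144) or replicate 3 of siNFYA (0.174). FUT8 fell by 0.32 (SE 0.089, adjusted p = 0.0157), with no call without replicate 1 of control siRNA (0.095) or replicate 2 of siNFYA (0.0701). B4GALT5 fell by 0.22 (SE 0.056, adjusted p = 0.0113) and lost its call without replicate 1 of siNFYA (0.07). GALNT3 fell by 0.17 (SE 0.046, adjusted p = 0.0178), uncalled without replicate 1 of control siRNA (0.0554) or replicate 1 (0.0835) or 2 (0.0672) of siNFYA. GFPT1 fell by 0.15 (SE 0.046, adjusted p = 0.0252), uncalled without replicate 1 (0.109) or 2 (0.0627) of control siRNA or replicate 2 of siNFYA (0.0827).

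With siKLF5 in R1881, GALNT7 fell by 0.31 (SE 0.053, adjusted p = 0.00209) and was called whichever library was left out, though not on TPM (−0.18, adjusted p = 0.502). Its 3 siKLF5 libraries, at 118, 111 and 114 CPM, were below the control libraries, at 153, 137 and 139 CPM. GALNT2 fell by 0.19 (SE 0.041, adjusted p = 0.0146), uncalled without replicate 1 (0.0981) or 2 (0.0515) of control siRNA or replicate 1 (0.0558) or 2 (0.0875) of siKLF5. ST6GALNAC1 fell by 0.25 (SE 0.062, adjusted p = 0.0394) and ST3GAL4 fell by 0.36 (SE 0.088, adjusted p = 0.0402), and neither was called without any 1 of the 6 libraries (adjusted p from 0.0855 to 0.191 and from 0.0557 to 0.181). The ST6GALNAC1 libraries with siKLF5 still held 69.98, 71.97 and 72.5 CPM, against 83.3, 83.7 and 90.5 CPM with control siRNA.

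MGAT1 (chr5:180784782-180815652) changed not only in level but in which transcripts made it up. The coding transcript MGAT1-201 held 50.5, 45.4 and 44.5% of MGAT1 TPM with siNFYA, 43.6, 39.98 and 41.7% with siKLF5 and 43.05, 45.5 and 40.2% with control siRNA in R1881. In vehicle its share was 24.1, 18.98 and 21.5% with siNFYA, 21.4 and 15.5% with siKLF5 and 21.9, 12.8 and 22.3% with control siRNA. Every R1881 library was above every vehicle library. In level, MGAT1-201 averaged 39.3, 35.4 and 40.3 TPM with siNFYA, siKLF5 and control siRNA in R1881, against 13.9, 11.6 and 11.3 TPM in vehicle. MGAT1-203, also coding, averaged 19.8, 18.1 and 21.9 TPM in R1881, against 18.3, 18.3 and 20.6 TPM in vehicle, and its libraries overlapped between treatments under each siRNA. These are model estimates for transcripts that share sequence, described without a test.

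The starts of these transcripts are apart, and the RefSeq promoter windows nearest to each are shown, with CCAAT or ATTGG and GGGCGG or CCGCCC in capitals. The window for MGAT1-201 is at chr5:180802757-180803056, minus strand, with its start 79 bases from that of the transcript, and the window for MGAT1-203 is at chr5:180810088-180810387, minus strand, with the same start as the transcript.
MGAT1-201: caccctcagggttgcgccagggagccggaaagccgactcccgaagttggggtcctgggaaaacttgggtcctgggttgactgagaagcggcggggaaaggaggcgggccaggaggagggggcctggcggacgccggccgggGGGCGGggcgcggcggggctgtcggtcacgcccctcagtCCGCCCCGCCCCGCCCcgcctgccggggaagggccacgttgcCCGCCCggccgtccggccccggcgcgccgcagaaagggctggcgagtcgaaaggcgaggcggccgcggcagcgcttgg
MGAT1-203: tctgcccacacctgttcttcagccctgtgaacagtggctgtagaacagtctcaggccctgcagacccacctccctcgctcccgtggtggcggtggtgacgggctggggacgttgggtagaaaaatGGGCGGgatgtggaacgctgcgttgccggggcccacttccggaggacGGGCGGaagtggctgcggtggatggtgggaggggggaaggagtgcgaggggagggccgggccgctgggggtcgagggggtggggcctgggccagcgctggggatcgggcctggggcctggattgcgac
The window of MGAT1-201 held 5 GC boxes and that of MGAT1-203 held 2, and neither held CCAAT. The androgen receptor letters AGAACA or TGTTCT were not in the MGAT1-201 window and occurred 2 times in that of MGAT1-203.

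Other genes of the same pathways moved less evenly. Their lists, too, were chosen with earlier results of these data known. Of 145 further genes on 6 pathway lists, 113 were tested with control siRNA and siNFYA and 112 with siKLF5, and with R1881 62 rose and 22 fell with siNFYA, 56 rose and 24 fell with siKLF5, and 59 rose and 25 fell with control siRNA, beside the shares of all genes given above, 31.2% and 31% with siNFYA, 30.7% and 28.4% with siKLF5 and 32.1% and 30.8% with control siRNA. The list of dolichol-linked oligosaccharide synthesis and oligosaccharyltransferase had 30 of 35 genes higher and 4 lower with siNFYA, 27 higher and 3 lower with siKLF5, and 31 higher and 4 lower with control siRNA. Its median log2 fold change was 0.613 with siNFYA, 0.539 with siKLF5 and 0.547 with control siRNA, beside −0.0183, −0.00593 and −0.0102 over all genes tested. OSTC, a subunit of oligosaccharyltransferase, averaged 188 CPM in R1881 and 67.8 CPM in vehicle under control siRNA, a log2 fold change of 1.47 (SE 0.050). Among 12 nucleotide sugar transporters, 11 were tested, and 7 rose and 1 fell under control siRNA. The lists of other O-glycan enzymes, other N-glycan processing enzymes and other galactosyl-, fucosyl- and sialyltransferases had 3 higher and 2 lower of 12 tested, 4 and 4 of 12, and 7 and 8 of 24. Of the other hexosamine and nucleotide sugar genes, 7 of 19 rose and 6 fell.

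The largest rises on these lists under control siRNA were in FUT3 (log2 fold change 1.73, SE 0.30), a Lewis fucosyltransferase, OSTC, HK2 (1.45, SE 0.072), a hexokinase, and B3GNT2 (1.43, SE 0.11), which extends poly-N-acetyllactosamine. The largest falls were in MAN1A1 (−3.26, SE 0.31), a Golgi mannosidase that trims N-glycans, FUT10 (−1.31, SE 0.16), GALK1 (−1.24, SE 0.21), a galactokinase, and NANP (−0.90, SE 0.17), the phosphatase that releases free sialic acid. MAN1A1 averaged 0.943 CPM in R1881 and 9.28 CPM in vehicle. NANS and CMAS, which act just before and after NANP, rose, as given above.

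Of the listed genes, 3 of 113 were called with siNFYA in R1881, beside 5.96% of all genes, 12 of 113 with siNFYA in vehicle, beside 13.5%, 1 of 112 with siKLF5 in R1881, beside 1.38%, and 0 of 112 with siKLF5 in vehicle, beside 1.32%. These shares were no higher than those of all genes. For siKLF5 in vehicle, 12 had an unadjusted p under 0.05 in edgeR, beside 12.9% of all genes. In R1881, siNFYA raised ALG2 (0.21, SE 0.055) and lowered GCNT1 (−0.24, SE 0.067) and GANAB (−0.13, SE 0.034), and siKLF5 lowered the glucosylceramide synthase UGCG (−0.39, SE 0.086). In vehicle, siNFYA lowered B3GALT4 (−0.97, SE 0.23), MAN2A1 (−0.35, SE 0.084), GALNT18 (−0.35, SE 0.11) and GCNT2 (−0.33, SE 0.11) and raised DPAGT1 (0.30, SE 0.086), ALG3 (0.27, SE 0.077), MAN2A2 (0.25, SE 0.068) and MAN1B1 (0.22, SE 0.061). GALNT18 was the only listed gene called in an interaction, where its log2 fold change with R1881 under siNFYA minus that under control siRNA was 0.70 (SE 0.16).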

How the data were processed

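RNA was measured in LNCaP cells by stranded RNA sequencing, per the labels' protocols. FastQC, Trimmomatic, kallisto, DESeq2 and the genome GRCh38 are named in the submitters' processing notes. Tool versions and strand settings were not given in the sources used here. Deposited by the authors were estimated counts per gene and joined tables with an estimated count, a TPM value and an unnamed number (not used) for each gene and 164776 transcripts. The deposited counts matched those of the joined tables within 0.00005. TPM is the unit of transcripts per 1000000.

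Groups came from the labels. The tables hold control siRNA with siNFYA (12 libraries) and with siKLF5 (11), share their 6 control columns, and were fitted separately. Estimated counts were rounded, scaled with TMM, passed through filterByExpr and tested in edgeR 4.0.16 in R 4.3.3 (quasi-likelihood F test, a coefficient for each group, Benjamini-Hochberg adjustment over all 12601 or 12733 genes). Standard errors were worked out from the log2 fold change and its F statistic. Alternatives used limma 3.58.1 on log2(TPM + 1), DESeq2 1.42.0 and the choices given further on. The tests were tried on simulated data. Transcript types and gene coordinates are from GENCODE 29, promoters from RefSeq (GRCh38.p14).

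The members, their roles, the pathway lists and the rules were chosen with earlier results of these data known. Every library was listed for members changed at least 2-fold with R1881 or called in a knockdown; of the pathway lists up to 4 rises and 4 falls per comparison were named, each called and at 5 CPM or more in the higher group. Replicate libraries differed beyond counting error, by chi-square over genes. Counts and intervals at low levels carry counting error only. Protein sequences were not used here.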

Additional observations from a re-analysis of the deposited data

How the results depend on the processing

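The counts of called members with R1881 stayed within 1.5 times of those given under every alternative, from 26 to 32 with siNFYA, 23 to 31 with siKLF5 and 29 to 32 with control siRNA, and without 1 library from 31 to 32, at 31 and from 30 to 31. 3 member values turned round: B4GALT5 under control siRNA with library totals (−0.1068) and on TPM (−0.0317), and MPI with siNFYA with library totals (−0.0018). For siNFYA in R1881, 5 members were called, against 1 on protein-coding transcripts only (chosen after the OGT transcripts were seen), 1 on TPM with limma, 2 in DESeq2 and 3 with library totals or the compared groups only. The same 3 tools (coding, TPM, DESeq2) gave 2, 1 and 2 against 6 for siNFYA in vehicle. They gave 2, 0 and 2 against 5 for siKLF5 in R1881, where DESeq2 gave an adjusted p to 14 members. For siKLF5 in vehicle they gave 0, 0 and 0 against 1, and DESeq2 gave an adjusted p to 7 members. Without 1 library the counts were 2 to 5, 3 to 6, 2 to 3 and 1 in that order, and 0 to 1 for the interaction with siNFYA.

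Over all genes, coding transcripts, TPM and DESeq2 gave 229, 194 and 397 calls against 751 for siNFYA in R1881 and 816, 457 and 953 against 1696 in vehicle. For siKLF5 in R1881 they gave 65, 36 and 91 against 176, with 388 without the low-count filter and 314 in the compared groups only. For siKLF5 in vehicle they gave 37, 2 and 79 against 168, with 409 without the filter, 81 in the compared groups only and 108 with both tables in 1 fit. The siNFYA interaction had 91 calls, with 40 on coding transcripts, 1 on TPM, 326 without the filter and 59 with both tables in 1 fit. The siKLF5 interaction had 2, with 1 on coding transcripts, 0 on TPM, 8 in DESeq2, 106 without the filter and 1 with both tables in 1 fit. Without 1 library these counts ran from 402 to 674, 1065 to 1604, 71 to 108, 70 to 434, 43 to 264 and 1 to 51. The filter of DESeq2 gave an adjusted p to 2365 of 12733 genes for siKLF5 in R1881, 1378 in vehicle and 637 for the siKLF5 interaction. For siNFYA it did so for 12598 of 12601 genes in R1881, 11621 in vehicle and 3562 for the interaction. The cause of the differences between settings was not tested. No paired analysis was possible because no label number is shared between libraries. Below about 5 CPM, counting error limits what a library can show, as for GALNT12.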

Other observations

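UAP1 also had transcripts that are not annotated as coding. UAP1-206, a processed transcript, held 43.4% to 45.1% of UAP1 TPM with siNFYA, 35.4% to 51.8% with siKLF5 and 30.5% to 49.5% with control siRNA in R1881. In vehicle it was listed at 0 in 2 of 3 siNFYA libraries and held 58.3% in the other. It held 26.3% and 29.3% with siKLF5, below every siKLF5 library in R1881, and with control siRNA it was listed at 0 in 1 of 3 libraries and held 27.6% and 42.3% in the others. The coding transcripts of UAP1 averaged 553, 560 and 588 TPM with siNFYA, siKLF5 and control siRNA in R1881, against 84.3, 84.5 and 91.1 TPM in vehicle.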
